A study of Homo sapiens with 6 samples.

Results

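The genes described here carry pyruvate into mitochondria and control its conversion to acetyl-CoA. They are the 10 entries of the expression table with the names MPC1, MPC2, PDHA1, PDHB, DLAT, PDHX, PDK1, PDK2, PDK3 and PDP1, out of 31368 genes. All 10 were found by name, each once, and all 10 passed the filter on low values. RNA came from CAL27, an established human tongue squamous carcinoma line, in 3 untreated libraries and 3 libraries from cells given 10 mM lactate for 24 h. Both groups are the same line without any engineered allele named in the labels. The labels give neither the form of lactate (acid or salt) nor the medium, and they do not say whether replicates were separate cultures. The p-values therefore speak of the spread among these 6 libraries alone, and that spread may be purely technical.

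Pyruvate from glycolysis or from lactate crosses the inner mitochondrial membrane through a carrier built from the MPC1 and MPC2 proteins. Inside, the pyruvate dehydrogenase complex turns it into acetyl-CoA with an E1 enzyme (PDHA1 and PDHB), an E2 core (DLAT) and an E3 enzyme (DLD) that is held to the core by the E3-binding protein PDHX. Pyruvate dehydrogenase kinases phosphorylate PDHA1 and switch the complex off, and phosphatases such as PDP1 switch it back on. PDK1 is a textbook target of hypoxia-inducible factors, which bind core letters such as ACGTG, and its product diverts pyruvate towards lactate. Pyruvate itself is known to inhibit the kinases.

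Because PDK1 has this known link, the 250 bases before each annotated start were searched for ACGTG on both strands. RefSeq (GRCh38.p14) gave 15 such windows for 9 of the 10 genes; PDP1 had no entry. The letters stood before at least 1 start of 6 of the 9 genes, against 21.7% of the 27305 genes in the same table, and in 6 of the 15 windows, against 18.5% of all 35116 windows. Genes with more windows had more chances of a match, and the background was not matched for GC content or expression. Enrichment was not tested. The 30 bases around the match nearest the start are shown for these 6, since they include all 3 kinase genes. Each is written 5′ to 3′ on the strand of its gene, with ACGTG or its reverse complement CACGT in capitals.
PDK1, chr2:172556060-172556089: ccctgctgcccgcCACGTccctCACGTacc
PDK3, chrX:24465212-24465241: tcgcgcgccgcgtACGTGcagcaaccgact
PDK2, chr17:50095210-50095239: cccgggggaagcCACGTGccggggcggaag
PDHX, chr11:34916483-34916512: ggaggcaaggccaACGTGgttggaggcggg
DLAT, chr11:112025360-112025389: ccattttacgacaACGTGcggctgtgcggt
PDHB, chr3:58433848-58433877: ggcggggcctgctCACGTctgccggcccct
PDK1 held 2 matches within 17 bases of its second annotated start and none before its first. In PDK2 the matches on the 2 strands overlap and form CACGTG, which is the E-box bound by other factors and stood in 6.34% of all windows. MPC1, MPC2 and PDHA1 held no ACGTG in these windows, and other forms of the core letters were not searched. A match is only a run of letters, and binding was not measured here.

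Expression is given as FPKM, the number of fragments scaled to gene length and library depth. Libraries rested on denominators of 25163374 to 40220226 reads. Reads recovered from the values summed to 25895115 to 39509993 per library. The 10 genes had between 224 reads (PDK2) and 9727 reads (PDHX) in a library. Squamous epithelial markers were present, with summed levels of 419.6 to 425.1 FPKM over 7 genes in untreated libraries and 419.8 to 428.4 in lactate. The near-equal sums cover shifts in both directions. In the test described below 5 of the 7 were higher and 2 lower, against 27.7% and 30.9% of all genes tested. KRT5 went from a mean of 155.1 to 118.4 FPKM and KRT17 from 108.2 to 135.9. Of the fibroblast markers 5 of 6 were in the table, with summed levels of 1.04 to 1.19 FPKM untreated and 1.59 to 1.79 in lactate. Blood cell markers (4 of 5 in the table) summed to 0.207 to 0.328 FPKM untreated and 0.243 to 0.315 in lactate. Endothelial markers (3 of 4) summed to 1.13 to 1.41 and 1.03 to 1.13 FPKM, with a highest single value of 1.34 FPKM for CDH5. No marker in the table was at 0 in all 6 libraries. Their part in the results was not tested. In bulk RNA a lower FPKM can mean a smaller share of cells with that RNA or a smaller share of it per cell. These cannot be told apart.

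The comparison asks how lactate, a source of pyruvate, goes with the mRNAs for pyruvate's entry and oxidation. Both carrier genes and both E1 genes fell, with mean FPKM changes of -9.16% to -17.3%. PDHX, PDK1, PDP1, PDK3 and DLAT rose, by 11.8% to 32.2%. PDK2 did not pass the test. In 9 of the 10 the groups did not overlap (5 higher, 4 lower), which held for 65.5% of all genes tested (31.4% higher, 34.2% lower). The count of calls was 5 higher and 4 lower of 10. Of all 11792 genes tested, 58.6% passed, 27.7% as higher and 30.9% as lower, so a gene that passes is common in this comparison. At an adjusted p under 0.01, 3 of the 10 were higher and 3 lower. Of all 11792 genes 20.3% were then higher, and 2673 genes were lower. With 1 library left out, 8 or 9 of the 10 passed. The share of all genes was then 54.5%, 53.5% and 52.7% without untreated replicate 1, 2 and 3, and 52.2%, 54.9% and 51.1% without lactate replicate 1, 2 and 3. With a filter at 5 FPKM, all 6 genes then tested passed, 2 higher and 4 lower, against 73.5% of all genes (27.7% higher, 45.8% lower). With a trend on GC content and length removed from each library, described further on, 1 was higher and 4 were lower, against 22.9% and 25.7%. The median of the 10 log2 fold changes was 0.039, against -0.016 over all genes tested. Their median size regardless of sign was 0.18, against 0.16 over all genes tested. The test was limma on log2(FPKM + 1) over all these genes, with Benjamini-Hochberg adjustment, and calls were made at 0.05. A positive fold change means a higher level in lactate. For genes of low level the added 1 makes changes look smaller than they are.

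**Figure D1:**
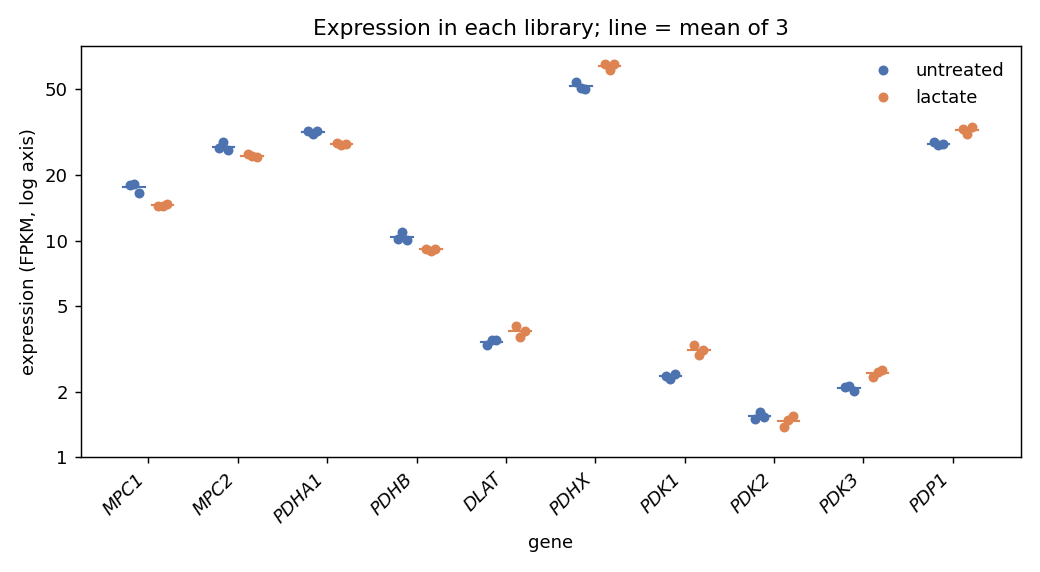
Expression of the 10 genes in each of 6 libraries (FPKM on a log axis; points are libraries, lines are means of 3). The groups are apart in every gene except PDK2, and PDHX is the highest gene in every library.

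The level per length differed widely within the set. In untreated cells the order was PDHX, PDHA1, PDP1, MPC2, MPC1, PDHB, DLAT, PDK1, PDK3 and PDK2, from a mean of 51.5 FPKM to 1.56 FPKM. Neighbours in that order did not share values, except PDP1 and MPC2, whose ranges overlapped. In lactate the order was the same apart from PDP1, which stood above PDHA1 (32.5 ± 1.2 against 27.8 ± 0.407 FPKM, mean ± SD, n = 3). In untreated cells PDHA1 was the higher of that pair (31.7 ± 0.622 against 28.02 ± 0.412 FPKM). Among all genes tested, PDHX lay at percentile 92.8 of mean level and PDK2 at 12.2. The lengths behind these values are close to the union of exons in GENCODE 29, except for DLAT and PDK3, where they are longer. They reach 14845 nt for PDK1 and 13506 nt for PDK3, against 1546 nt for MPC1. A gene whose cells use only a short transcript is understated on this scale, so the order is one of deposited FPKM.

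The carrier genes came first. MPC1 (ENSG00000060762, chromosome 6, 166364919 to 166383013 in GRCh38) stood at 18.1, 18.2 and 16.6 FPKM in untreated replicates 1 to 3 and at 14.5, 14.5 and 14.8 in lactate. All lactate libraries were below all untreated ones. The log2 fold change was -0.26 (SE 0.037, 95% interval -0.34 to -0.17, adjusted p = 0.000849 by limma). MPC1 held its direction and its call under every alternative run.

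MPC2 (ENSG00000143158, chromosome 1, 167916729 to 167937040) stood at 26.7, 28.4 and 26.2 FPKM untreated and at 25.1, 24.5 and 24.3 in lactate. The groups were close but did not overlap. Its log2 fold change was -0.13 (SE 0.033, interval -0.21 to -0.055, adjusted p = 0.0110 by limma). MPC2 did not pass after scaling to read totals (-0.065, adjusted p = 0.138) or after quantile normalization (-0.071, adjusted p = 0.0781). Its exons overlap those of DCAF6 on the opposite strand by 575 nt of 2552 nt. DCAF6 rose (5.09 to 7.5 FPKM, adjusted p = 0.0001005 by limma), and the labels do not say whether counting used strand.

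The E1 enzyme genes fell by similar amounts. PDHA1 encodes the alpha subunit, the one that the kinases phosphorylate (ENSG00000131828, chromosome X, 19343893 to 19361705). It stood at 31.9, 31.0 and 32.2 FPKM untreated and at 28.3, 27.5 and 27.8 in lactate, without overlap. Its log2 fold change was -0.18 (SE 0.024, interval -0.24 to -0.12, adjusted p = 0.000563 by limma). PDHB encodes the beta subunit (ENSG00000168291, chromosome 3, 58427630 to 58433857). Its levels were 10.1, 10.9 and 10.1 FPKM untreated and 9.18, 8.99 and 9.18 in lactate, again without overlap. The limma fit gave a log2 fold change of -0.17 (SE 0.036, interval -0.25 to -0.085, adjusted p = 0.00519 by limma). Scaling to read totals made both changes smaller, -0.11 for PDHA1 (adjusted p = 0.00394) and -0.11 for PDHB (adjusted p = 0.0428), and both still passed. Quantile normalization also gave -0.11 for PDHA1 (adjusted p = 0.00769).

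PDHX, whose product anchors the E3 enzyme, rose from the highest level of the set (ENSG00000110435, chromosome 11, 34915829 to 35020591). It stood at 53.8, 50.7 and 50.2 FPKM untreated and at 65.2, 61.2 and 65.0 in lactate. All lactate libraries lay above all untreated ones. This was a log2 fold change of 0.30 (SE 0.036, interval 0.22 to 0.39, adjusted p = 0.000331 by limma). It passed under every alternative run, with values of 0.25 to 0.45. PDHX and APIP, a gene of methionine salvage, start head to head and share 259 nt of exon on opposite strands. APIP fell over the same libraries, from a mean of 40.9 to 37.0 FPKM (log2 fold change -0.14, adjusted p = 0.0154 by limma).

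DLAT, the acetyltransferase of the E2 core, lay at the threshold (ENSG00000150768, chromosome 11, 112024814 to 112064390). Its levels were 3.29, 3.50 and 3.48 FPKM untreated and 4.03, 3.60 and 3.85 in lactate, with lactate replicate 2 just above the highest untreated library. The limma fit gave DLAT a log2 fold change of 0.13 (SE 0.044, interval 0.022 to 0.23, adjusted p = 0.0416 by limma). The call was lost without untreated replicate 1, 2 or 3 or without lactate replicate 1 or 3 (adjusted p = 0.0613 to 0.128). Quantile normalization (0.077, adjusted p = 0.184) and median centring (adjusted p = 0.0795) ended it too, as did leaving out the filter on low values (adjusted p = 0.120). Of 16 alternatives 11 lost the call and 5 kept it. Those that kept it include read totals (0.18, adjusted p = 0.0096 by limma) and voom on recovered reads (0.16, adjusted p = 0.00933).

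Of the kinase genes, PDK1 rose most (ENSG00000152256, chromosome 2, 172555373 to 172608669). It stood at 2.37, 2.30 and 2.44 FPKM untreated and at 3.31, 2.95 and 3.13 in lactate, which is 858 to 1868 reads per library. The groups were well apart. PDK1 had a log2 fold change of 0.29 (SE 0.044, interval 0.19 to 0.40, adjusted p = 0.000976 by limma), and the ratio of mean FPKM was 1.32. PDK1 was at 0.085 with the GC and length trend removed and did not pass (adjusted p = 0.105).

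PDK3, the kinase gene on the X chromosome (ENSG00000067992, 24465221 to 24541862), stood at 2.12, 2.14 and 2.01 FPKM untreated. In lactate its levels were 2.34, 2.47 and 2.54 FPKM, all above the untreated ones. The log2 fold change was 0.16 (SE 0.041, interval 0.063 to 0.25, adjusted p = 0.0123 by limma). With that trend removed PDK3 was at 0.080 and did not pass (adjusted p = 0.155).

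PDK2, a broadly expressed kinase gene, was the lowest of the set (ENSG00000005882, chromosome 17, 50094737 to 50112152). It stood at 1.51, 1.63 and 1.53 FPKM untreated and at 1.38, 1.49 and 1.55 in lactate, and the groups overlapped. The log2 fold change was -0.047 (SE 0.048, interval -0.16 to 0.065, adjusted p = 0.424 by limma). With 224 to 341 reads per library it was also the least deeply read of the 10. Its exons overlap those of SAMD14 on the opposite strand by 2113 nt of 5481 nt, and SAMD14 had 2 to 5 reads per library. With the GC and length trend removed PDK2 was at 0.026 (adjusted p = 0.640), against 0.085 for PDK1.

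PDP1, the phosphatase gene (ENSG00000164951, chromosome 8, 93857807 to 93926066), stood at 28.5, 27.7 and 27.9 FPKM untreated and at 32.8, 31.1 and 33.4 in lactate. Every lactate library was above every untreated one. The log2 fold change was 0.20 (SE 0.030, interval 0.13 to 0.28, adjusted p = 0.000965 by limma). PDP1 was at 0.069 with the GC and length trend removed and did not pass (adjusted p = 0.0503).

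**Figure D2:**
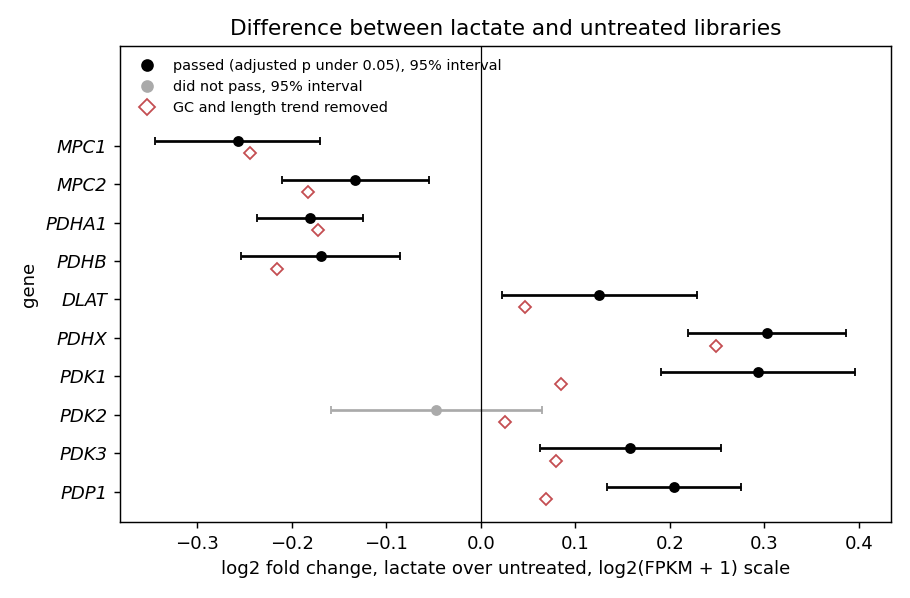
Change of each gene from untreated to lactate as a log2 fold change of FPKM + 1. Circles with bars are limma estimates with 95% intervals and open diamonds are the estimates with the GC and length trend removed; MPC1, MPC2, PDHA1, PDHB and PDHX stay near their circles, and PDK1 and PDP1 move towards 0.

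In these libraries fold change ran with the GC content of the longest annotated transcript across all genes. The merged exon length of each gene was put into the same trend, and its own part was not measured. The 10 genes differ in both GC content and length. The 5 that rose had a GC content of 39.8% (PDK1) to 43.5% (PDHX and PDK3), the 4 that fell 42.2% (MPC2) to 46.6% (PDHA1), and PDK2 had 59.8%. After a GC and length trend was taken out of each library, the falls of MPC1 (-0.24, adjusted p = 0.00158 by limma), MPC2 (-0.18, adjusted p = 0.00474), PDHA1 (-0.17, adjusted p = 0.000394) and PDHB (-0.22, adjusted p = 0.00268) passed. So did the rise of PDHX (0.25, adjusted p = 0.000468). PDK1, PDK3, PDP1 (values above) and DLAT (0.046, adjusted p = 0.398) no longer passed. The count became 1 higher and 4 lower, where 22.9% and 25.7% of 11588 genes passed as higher and lower (48.6% in all). Using the lengths behind the deposited values instead of annotated ones, a choice made after seeing the data, PDP1 passed (0.071, adjusted p = 0.0461) and the other 3 did not. That made 2 higher, against 23.0% of genes. Whether the GC and length trend belongs to the cells or to the libraries was not tested.

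**Figure D3:**
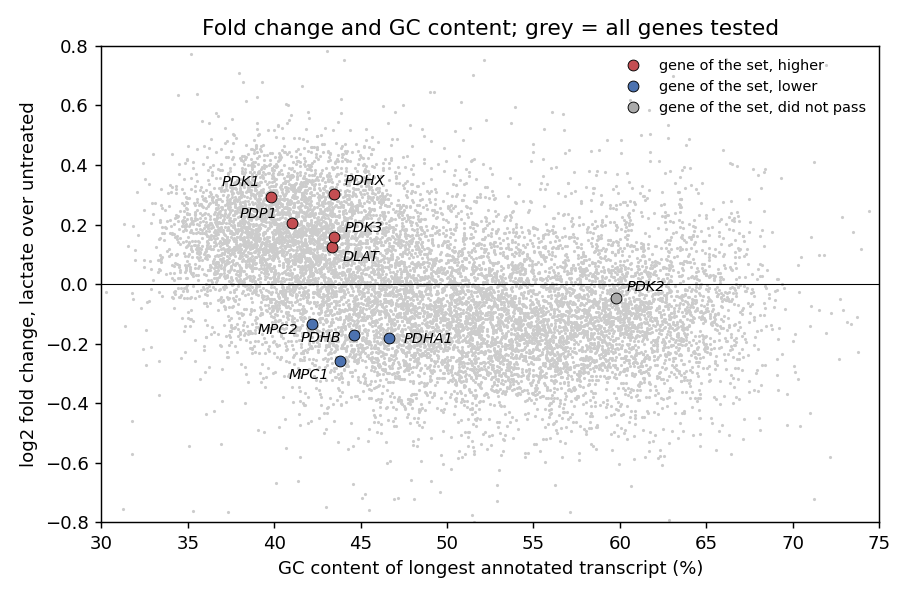
Log2 fold change against GC content of the longest annotated transcript for all genes tested (grey; 42 lie outside the axes and 204 have no GC value) and the 10 genes (coloured). The cloud falls from low to high GC content, and the carrier and E1 genes lie below 0 while PDHX, PDK3 and DLAT, at 43.3% to 43.5% GC, lie above it.

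Ratios of 2 genes within a library do not depend on a scaling factor per library, but they carry any trend on GC content and length. A total of 7 ratios were compared by exact two-sided permutation tests, which cannot go below p = 0.1 with 3 against 3. PDK1 stood to PDK2 at 1.57, 1.41 and 1.59 in untreated and 2.40, 1.98 and 2.02 in lactate libraries. These groups did not overlap (log2 change 0.48, exact p = 0.1, adjusted p = 0.233). PDK1 and PDK2 are the furthest apart of the 10 in GC content (39.8% and 59.8%), and with the trend removed their log2 fold changes were 0.085 and 0.026. PDK2 to PDK3 went from 0.745 ± 0.0281 to 0.602 ± 0.0106 (mean ± SD, n = 3 each, log2 change -0.31, exact p = 0.1, adjusted p = 0.233), also without overlap. PDK1 made up 37.9% to 40.7% of the summed FPKM of the 3 kinase genes in untreated libraries and 42.7% to 47.1% in lactate. PDK1 to PDK3 overlapped between the groups (1.13 ± 0.0688 and 1.28 ± 0.118, n = 3 each, exact p = 0.2).

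MPC1 stood to MPC2 at 0.676, 0.641 and 0.634 in untreated and 0.575, 0.591 and 0.609 in lactate libraries. The carrier pair thus did not overlap either (log2 change -0.14, exact p = 0.1, adjusted p = 0.233). PDHA1 to PDHB, the subunits of E1, had means of 3.06 ± 0.197 and 3.05 ± 0.0269 (n = 3 each, exact p = 1). DLAT to PDHX, the 2 proteins of the core, had means of 0.0665 ± 0.00463 and 0.0599 ± 0.0017 with overlap (n = 3 each, exact p = 0.2). The 3 kinase genes summed to 5.98 to 6.06 FPKM untreated and 6.92 to 7.22 in lactate. Set against PDP1 that sum gave ratios of 0.215 ± 0.00384 and 0.218 ± 0.00424, which overlapped (n = 3 each, log2 change 0.019, exact p = 0.5). The kinase sum and PDP1 were higher by nearly the same proportion. PDP2, another phosphatase gene described below, is not part of this ratio.

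**Figure D4:**
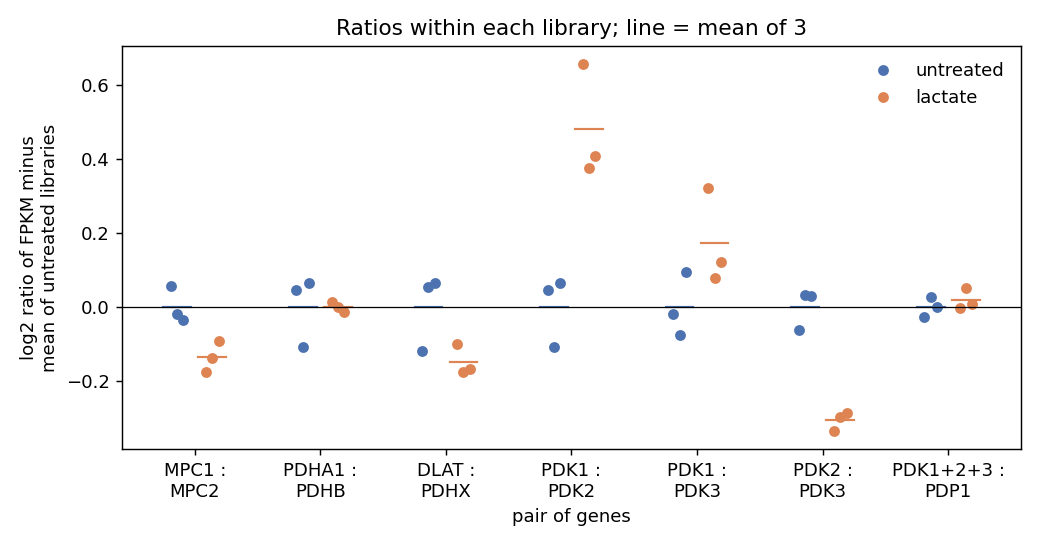
Log2 ratio of FPKM for 7 pairs of genes or sums in each library, minus the mean of the untreated libraries (points are libraries, lines are means of 3). PDK1 to PDK2, PDK2 to PDK3 and MPC1 to MPC2 separate the groups, and PDHA1 to PDHB and the kinase sum to PDP1 do not.

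Other genes of the complex were read from a list. DLD, the shared E3 enzyme that PDHX binds, stood at 16.1, 15.7 and 16.7 FPKM untreated and at 22.0, 21.0 and 21.7 in lactate. It rose with a log2 fold change of 0.39 (SE 0.031, adjusted p = 5.59e-05 by limma), and by 0.25 with the GC and length trend removed (adjusted p = 0.000223). PDP2, the other catalytic phosphatase, went from 6.35 ± 0.0357 to 5.87 ± 0.217 FPKM (n = 3 each, log2 fold change -0.098, adjusted p = 0.0359 by limma, and -0.18 with the GC and length trend removed). That call was lost without untreated replicate 1, 2 or 3 or lactate replicate 1 or 3 (adjusted p = 0.0692 to 0.109), with read totals (-0.038, adjusted p = 0.390) and with no filter on low values (adjusted p = 0.0900). PDPR, the regulatory subunit of the phosphatase, had means of 4.18 and 4.12 FPKM (adjusted p = 0.696 by limma). PDK4, PDHA2 and MPC1L were not analysed here.

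The complex needs lipoate on its core and thiamine diphosphate on E1. Of 15 genes of lipoate and thiamine supply, 12 were tested, 5 fell and 0 rose by limma (at an unadjusted p under 0.05 in that direction also 0), with a median log2 fold change of -0.14 against -0.016 over all genes. Over all genes tested 30.9% fell and 27.7% rose. With the GC and length trend removed 7 of the 12 fell and 0 rose, against 25.7% and 22.9%. NDUFAB1, the mitochondrial acyl carrier protein on which lipoate is built, fell from 109.6 ± 1.66 to 96.1 ± 1.08 FPKM (n = 3 each, adjusted p = 0.000171 by limma), and did not pass after quantile normalization (-0.046, adjusted p = 0.0745). Its log2 fold change of -0.19 was -0.12 with read totals and -0.084 with the GC and length trend removed. BOLA3, which helps supply iron-sulfur clusters for lipoate synthesis, fell from 12.5 to 10.2 FPKM. Its log2 fold change was -0.27, and -0.15 with the GC and length trend removed (adjusted p = 0.00714 by limma).

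The sister complexes, built on the same plan for 2-oxoglutarate and branched-chain keto acids, gave 2 higher and 1 lower of 7 tested genes (10 listed, median 0.039). These shares were near or below the 27.7% and 30.9% of all genes. With the GC and length trend removed 3 of the 7 rose and 2 fell, against 22.9% and 25.7%. DBT, the core of the branched-chain complex, rose from 1.80 ± 0.083 to 2.61 ± 0.155 FPKM (n = 3 each, log2 fold change 0.37, adjusted p = 0.000482 by limma). DLST, the core of the 2-oxoglutarate complex, fell from 17.4 to 15.0 FPKM (-0.20). With the GC and length trend removed both passed at smaller values, DBT at 0.17 (adjusted p = 0.0154 by limma) and DLST at -0.11 (adjusted p = 0.00645). DHTKD1 was near the threshold (0.12, adjusted p = 0.0380 by limma) and lost its call without any single library other than lactate replicate 3 (adjusted p = 0.0555 to 0.118). It was also lost after quantile normalization (0.085, adjusted p = 0.132), median centring (adjusted p = 0.0688) and without the filter (adjusted p = 0.112). With the GC and length trend removed DHTKD1 passed (0.16, adjusted p = 0.0154 by limma).

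Of 14 other genes that make or use pyruvate or citrate, 11 were tested, 7 fell and 2 rose (median -0.088), against 30.9% and 27.7% of all genes. With the GC and length trend removed 5 fell and 1 rose: LDHB, PC, PCK2 and ME2 no longer passed and LDHA did (PC and PCK2 are named here after their values were seen). PKM, the pyruvate kinase gene, fell from 344.8 ± 4.4 to 279.0 ± 0.797 FPKM (n = 3 each, log2 fold change -0.30, and -0.11 after quantile normalization). GPT2, which interconverts pyruvate and alanine in mitochondria, fell from 17.99 to 13.78 FPKM (-0.36), and ACLY, which turns exported citrate back into acetyl-CoA, from 28.3 to 24.8 FPKM (-0.19, and -0.11 with the GC and length trend removed). ME1, the cytosolic malic enzyme that makes pyruvate from malate, rose from 15.1 to 18.9 FPKM (0.30, and 0.20 with that trend removed). ME2, its mitochondrial counterpart, rose from 3.99 to 4.57 FPKM (0.16), and had the opposite sign with the GC and length trend removed (-0.044, adjusted p = 0.317). LDHB, which favours lactate oxidation, fell by 0.088 on the log2 scale (adjusted p = 0.0129 by limma), but not with read totals (adjusted p = 0.488), quantile normalization (0.421) or the trend removed (0.0960). LDHA, whose enzyme favours lactate formation, had means of 284.8 and 276.7 FPKM (-0.042, adjusted p = 0.118 by limma). Its value was 0.14 after quantile normalization (adjusted p = 0.000533) and -0.13 with the trend removed (adjusted p = 0.000340), and read totals gave 0.028 (adjusted p = 0.220), so its direction depended on the scaling.

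Of 16 transcription factors and sensors known to act on kinase genes of this family, 11 were tested, 6 rose and 1 fell (median 0.17), and the counts were also 6 and 1 with the GC and length trend removed. Of all genes 27.7% rose and 30.9% fell. HIF1A, whose product induces PDK1 in hypoxia, rose from 50.6 ± 1.98 to 62.2 ± 1.65 FPKM (n = 3 each, log2 fold change 0.29, adjusted p = 0.000270 by limma). EPAS1, which encodes the related HIF-2 alpha, rose from 6.14 to 8.23 FPKM (0.37). EGLN3, an oxygen-dependent hydroxylase gene, rose from 3.79 to 4.93 FPKM (0.31). These 3 passed with the GC and length trend removed (HIF1A 0.15, EPAS1 0.42 and EGLN3 0.33). ESRRA, an orphan nuclear receptor of mitochondrial genes, fell from 67.7 to 57.6 FPKM (-0.23, adjusted p = 0.00149 by limma) and did not pass after quantile normalization (-0.096, adjusted p = 0.0880). With the GC and length trend removed ESRRA was at -0.12 (adjusted p = 0.00222). All these values are mRNA levels, and protein or activity of the factors was not measured.

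**Figure D5:**
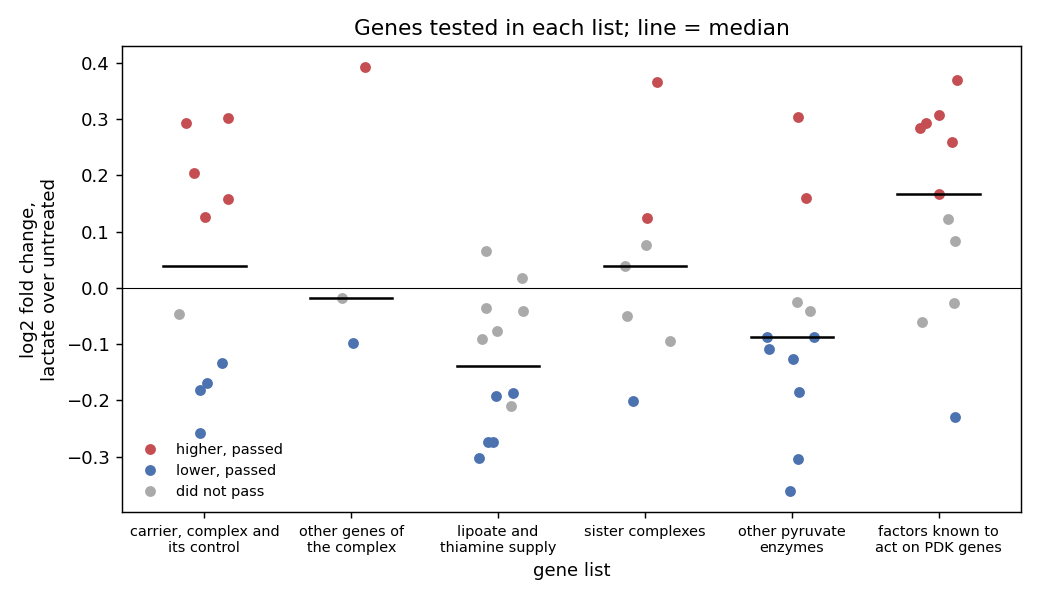
Log2 fold change, lactate over untreated, of the tested genes in 6 lists (points are genes, coloured by the call; lines are medians). The carrier, complex and control genes split into 5 higher and 4 lower, the lipoate and thiamine list has 0 genes called higher, and the list of factors has 6.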

How the data were processed

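Poly-A RNA-seq of 6 CAL27 libraries was analysed. The authors deposited FPKM per gene and library. Tools named, per the submitters' processing notes, were featureCounts 1.5.0-p3, StringTie 1.3.3b, HISAT2 2.0.5 and fastp, and the build hg38; the sources used here give neither their roles nor the annotation release or strand setting. FPKM of low genes were whole multiples of a constant, so reads and gene lengths were recovered to within 0.003 reads for 31366 genes (99.99%), except that the tolerance was relative for the few genes with the most reads. Where counts shared a factor the length nearest the annotated one was taken, so totals are approximate. The denominators were not the plain sums of these reads: recovered reads came to 103% to 104% of the denominators in untreated and 98.0% to 99.1% in lactate libraries.

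Groups follow the treatment label. limma 3.58.1 (R 4.3.3) with trended, robust variance was fitted on log2(FPKM + 1) for genes of at least 1 FPKM in at least 3 libraries, with group as the only term. The fit was tested on simulated data with few changed genes and without a GC, length or scaling difference between the groups. That test therefore does not cover these features. GC content and exon overlaps came from GENCODE 29 (30228 identifiers matched). Natural splines with 4 degrees of freedom removed the GC and length trend. Alternatives were quantile normalization, median centring, scaling to read totals, no variance trend, no filter, a filter at 5 FPKM, a pseudocount of 0.1, voom on recovered reads, an adjusted p under 0.01, the replicate block and each library left out. Ratios were compared in Python 3.11.15. The genes and lists were chosen with earlier results of these data known. Besides the 10 genes, DLD, PDK4, PDP2, PDPR, LDHA and LDHB were named, and, in each list and direction, up to 3 called genes of lowest p. APIP, DCAF6 and SAMD14 were added for their exon overlaps, after values were seen. A gene that this rule names is not reported here.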

Additional observations from a re-analysis of the deposited data

How the results depend on the processing

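The count of 9 of 10 genes past the threshold became 5 with the GC and length trend removed, and the count of higher genes went from 5 to 1, or to 2 with the lengths behind the deposited values. It was 3 at an adjusted p under 0.01 and 2 with a filter at 5 FPKM, which left DLAT, PDK1, PDK2 and PDK3 untested and brought the higher calls over all genes from 3265 to 1786. Scaling to read totals gave 4162 higher and 2579 lower genes, against 3265 and 3649. Leaving out 1 library gave 6027 to 6473 calls over all genes and 8 or 9 of the 10. Deviations from the group means correlated at 0.053, 0.067 and -0.0038 between same-numbered libraries, and at -0.071 to 0.022 between the others. Values this small cannot decide whether same-numbered libraries were paired. With the replicate number as a block 7039 genes passed and DLAT did not (adjusted p = 0.0705), and under the block DHTKD1 was lost (0.0595) and LDHA passed (0.01503). The ratio of PDHA1 to PDHB changed by -0.055 to 0.032 (log2) with 1 library left out, against -0.00032. That of the kinase sum to PDP1 was -0.0051 on log2(FPKM + 1), against 0.019. LDHA reversed after quantile normalization (0.14). ME2 reversed with the GC and length trend removed (-0.044, and -0.033 with deposited lengths). Apart from the construction of the 5 FPKM filter, the cause was not tested. MPC1, PDHA1, PDHB and PDHX kept direction and call in all 17 alternatives. PDK2, with 224 to 341 reads, limits what could be seen of small changes.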

Other observations

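PDHX lies on chromosome 11 beside APIP and near CD44, a cell adhesion receptor gene of the same arm, and the 3 stood at high levels in untreated cells (51.5, 40.9 and 87.9 FPKM). CD44 was looked up after the values of PDHX were seen. CD44 stood at 114.7 FPKM in lactate and had risen by 0.38 on the log2 scale (adjusted p = 1.74e-05 by limma), while APIP fell. PDHX exceeded its binding partner DLD in every library (50.2 to 53.8 against 15.7 to 16.7 FPKM untreated, and 61.2 to 65.2 against 21.0 to 22.0 in lactate).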
